A study of Homo sapiens with 18 samples.

Results

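CXCL9, CXCL10, CXCL11, CXCL16, CX3CL1 and CCL5 encode chemokines that attract T cells, and their transcripts were followed through olaparib treatment of breast cancer cells. The 6 genes were found by Ensembl identifier without its version among the 35044 genes of the count table. All 6 were listed, and 5 had enough counts for a test, the exception being CXCL9.

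Chemokines are small secreted proteins that guide leukocytes along a concentration gradient through G protein-coupled receptors. CXCL9, CXCL10 and CXCL11 are interferon-induced ligands of CXCR3, the receptor of activated T cells and NK cells. CXCL16 and CX3CL1 are made as membrane-anchored proteins whose ectodomains are shed by the proteases ADAM10 and ADAM17, and their receptors are CXCR6 and CX3CR1. CCL5 binds CCR1 and CCR3 among other receptors. Tumour cells that make these ligands are known for drawing effector T cells into the tumour, and no chemokine protein or T cell was measured in the libraries described here.

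Transcripts were counted in 18 RNA-seq libraries, 3 for each of 6 conditions. The cell lines were HCC1937-EV, described as BRCA1-mutated HCC1937 breast cancer cells with an empty vector, and HCC1937-OE-BRCA1, described as the same cells with wild-type BRCA1 overexpressed. Each line was untreated or exposed to 10 µmol/L of the PARPi olaparib for 12 h or 24 h, so both lines share the HCC1937 name and the drug. The labels name olaparib for the untreated libraries as well and give the HCC1937-EV genotype as WT, and the grouping followed line and time in the titles. How the overexpressing cells were selected, as a pool or as a clone, is not given in the sources used here, nor whether the 3 libraries of a condition came from separate cultures, so p-values measure only the spread between these libraries. Total counts lay between 15081973 and 17571922 per library. Levels are given in CPM, the count scaled to the library size after TMM normalization, as mean ± SD. Changes were tested with the quasi-likelihood method of edgeR, SE is the standard error of a log2 fold change, and a gene was called when its p, adjusted after Benjamini and Hochberg over all genes tested, was under 0.05. A gene without a count in a library could have reached 3 counts, which is 0.177 to 0.204 CPM at these depths, and such limits cover counting error only.

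Markers were read before the chemokines, because they bear on what the lines can be compared for. In the 9 libraries labelled HCC1937-EV, several epithelial markers were absent or nearly so. EPCAM, an epithelial adhesion molecule, had 1 count over the 9 libraries, the basal keratins KRT5 and KRT14 had 8 and 3 counts, and E-cadherin (CDH1) had 5 to 20 counts per library. The corresponding totals in HCC1937-OE-BRCA1 were 44188 for EPCAM, 208586 for KRT5, 5683 for KRT14 and 60261 for CDH1. KRT8 and KRT18, keratins of simple epithelia, were present in both lines, with medians of 1877 and 883 CPM in HCC1937-EV and 3407 and 1068 CPM in HCC1937-OE-BRCA1. Vimentin (VIM), a filament of mesenchymal cells that was chosen after its values were seen, had 10 to 31 counts per library in HCC1937-OE-BRCA1 and 3790 to 5390 in HCC1937-EV. The libraries labelled HCC1937-EV therefore went against the label by these markers, and an effect of BRCA1 cannot be told apart from other differences between the cells in any comparison of the lines. The targeted gene itself, BRCA1, stood at 126, 111 and 117 CPM in untreated HCC1937-EV and at 166, 122 and 127 CPM in untreated HCC1937-OE-BRCA1, groups that overlapped (log2 fold change 0.24, edgeR adjusted p = 0.0654). This untreated difference was called by DESeq2's Wald test (0.28, adjusted p = 0.035), with DESeq2's size factors (0.27, edgeR adjusted p = 0.0345), with at least 10 counts required in every library (0.29, edgeR adjusted p = 0.0274) and with a correction for GC content and exonic length (0.41, edgeR adjusted p = 4.1e-07). With 1 library left out it ran from 0.088, without replicate 1 of HCC1937-OE-BRCA1, to 0.32, and was called without its replicate 2 or 3. At 12 h the lines overlapped in BRCA1 (0.16, edgeR adjusted p = 0.197), and with the same correction this difference was called too (0.18, edgeR adjusted p = 0.00443). The overexpression named in the label thus did not separate the libraries of the lines by BRCA1 RNA level without treatment or at 12 h. Counts per gene do not tell transfected from mutated BRCA1 transcripts, and they do not measure protein. By protein, the authors reported truncated BRCA1 in HCC1937-EV, and both truncated and transfected wild-type BRCA1 in HCC1937-OE-BRCA1. At 24 h the HCC1937-OE-BRCA1 libraries, at 155 to 169 CPM, all lay above those of HCC1937-EV, at 90.9 to 99.5 CPM (0.77, edgeR adjusted p = 3.17e-06). Within a line BRCA1 was not called at 24 h, with a log2 fold change of 0.22 in HCC1937-OE-BRCA1 and −0.32 in HCC1937-EV (edgeR adjusted p = 0.242 and 0.064). Time courses within HCC1937-OE-BRCA1 compare its own libraries. From the other line they take the shared spread, the scaling, the filter on low counts and the set of genes for the adjustment. A fit on the 9 HCC1937-OE-BRCA1 libraries alone is given with the calls.

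**Figure D1:**
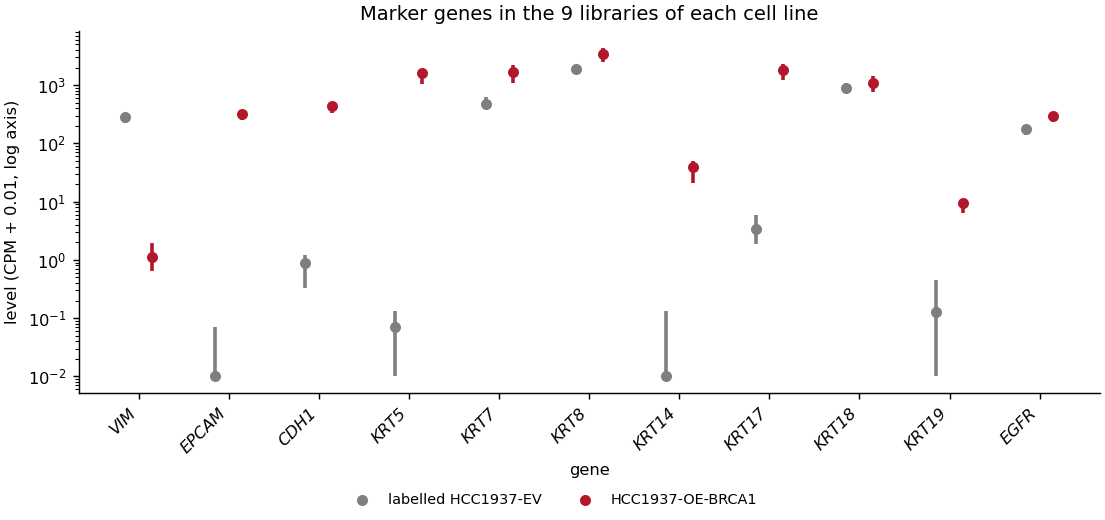
Levels of 11 marker genes on a log axis (CPM + 0.01) in the 9 libraries of each line, with a point at the median and a bar from the lowest to the highest library. EPCAM, KRT5 and KRT14 sit near the bottom of the axis in the libraries labelled HCC1937-EV, whereas KRT8, KRT18 and EGFR are high in both.

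Immune transcripts were then looked for, because leukocytes also make several of these chemokines. Of 12 markers of T, B and NK cells, 6 were listed, and their summed level in HCC1937-OE-BRCA1 was 54.8 CPM untreated, 73.5 CPM at 12 h and 70.9 CPM at 24 h. Nearly all of it was NCAM1, at 53.3, 71.8 and 68.5 CPM, which tumour cells can also express. PTPRC, the pan-leukocyte CD45 gene, lay between 0.431 and 2.22 CPM in HCC1937-OE-BRCA1 and had no count in HCC1937-EV. The B cell gene CD79A had at most 3 counts per library in HCC1937-OE-BRCA1, the cytotoxic granule gene NKG7 at most 7 and the T cell co-receptor gene CD8A at most 15. Myeloid markers, 7 of 10 listed, summed to 47.0, 84.4 and 83.3 CPM in HCC1937-OE-BRCA1, led by CD14 at 40.6, 77.7 and 77.9 CPM. CD14 was called higher at 12 h (log2 fold change 0.94, edgeR adjusted p = 0.000612) and at 24 h (0.94, adjusted p = 0.000342), while CD68, a macrophage marker, had at most 3 counts in any library. Endothelial and fibroblast markers, 8 of 9 listed, summed to 26.1, 33.8 and 35.1 CPM, with PECAM1, an endothelial adhesion molecule, the most abundant at 10.5, 16.5 and 19.8 CPM. PECAM1 was not called at 12 h (log2 fold change 0.66, edgeR adjusted p = 0.142) and was called higher at 24 h (0.92, edgeR adjusted p = 0.00968), as the only one of the 5 tested markers of this list. At 24 h 4.71% of all genes were called higher, so this count is too small to set the list apart. The part of such cells in the chemokine levels was not tested, and with bulk RNA a change in the number of cells cannot be told apart from a change in RNA per cell.

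By level, the 6 chemokines covered a wide range, here compared as CPM per kilobase of exon so that genes of different length can be set side by side. In untreated HCC1937-OE-BRCA1, CXCL16 was highest at 78.0 ± 5.66 CPM per kb (SD, n = 3). CCL5 followed at 10.6 ± 7.39, CXCL10 at 4.22 ± 0.807, CXCL11 at 0.509 ± 0.126 and CX3CL1 at 0.0311 ± 0.0206 CPM per kb (SD, n = 3 each), and CXCL9 had no count. CCL5 and CXCL10 differed by less than the SD of CCL5. After 12 h the order of these 2 neighbours turned over, with CXCL10 at 35.6 ± 2.65 and CCL5 at 14.4 ± 6.16 CPM per kb, below CXCL16 at 83.5 ± 4.26 and above CXCL11 at 3.03 ± 0.997. CX3CL1 reached 0.359 ± 0.1299 CPM per kb at 12 h and 0.722 ± 0.0728 at 24 h, and in both cases stood below CXCL11, which had 2.17 ± 0.325 at 24 h, and above CXCL9. At 24 h CCL5 stood at 13.8 ± 4.36 and CXCL10 at 12.2 ± 2.52 CPM per kb, again within their SD, below CXCL16 at 54.1 ± 1.31. In HCC1937-EV, CXCL16 was the highest at every time, at 2.34 to 2.52 CPM per kb, CCL5 lay between 0.150 and 0.419 CPM per kb, and each of the other 4 genes had 3 counts or fewer per condition.

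**Figure D2:**
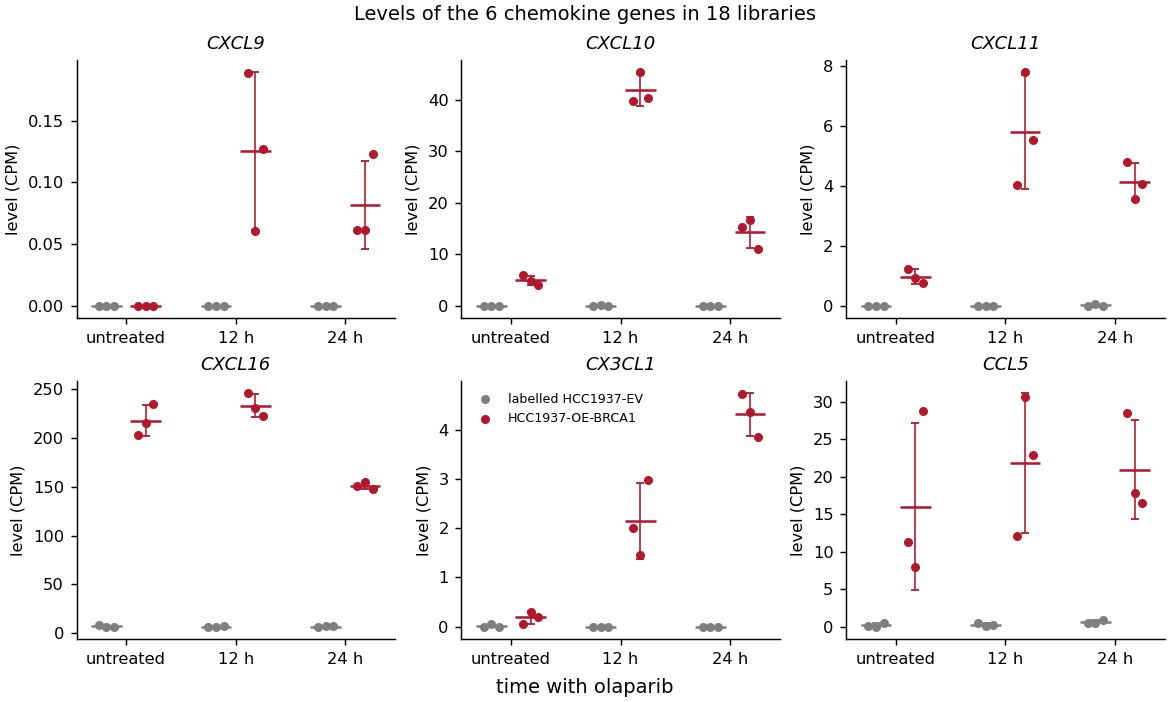
Level in CPM (linear axes, a different range in each panel) of the 6 chemokine genes against time with olaparib, with 1 point per library, a line at the mean and a bar of 1 SD (n = 3). CXCL10 peaks at 12 h in HCC1937-OE-BRCA1, CX3CL1 is highest at 24 h and CXCL16 is lowest at 24 h. The grey points of the libraries labelled HCC1937-EV lie near the bottom of every panel.

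The CXCR3 ligands are described first. CXCL9, CXCL10 and CXCL11 lie side by side on the minus strand of chromosome 4 of GRCh38 by GENCODE release 29, CXCL9 (ENSG00000138755.6) from 76001275 to 76007488, CXCL10 (ENSG00000169245.6) from 76021117 to 76023497 and CXCL11 (ENSG00000169248.13) from 76033682 to 76041415. The 250 bases before their RefSeq start sites (GRCh38.p14) are shown, since interferon and NF-kB response genes are often controlled by elements close to the start. Capitals mark 3 kinds of match searched on both strands, namely the interferon-stimulated response element (ISRE) core GAAANNGAAA, the interferon-gamma activated site (GAS) core TTCNNNGAA and the NF-kB consensus. The stretches are chr4:76007510-76007759 for CXCL9, chr4:76023498-76023747 for CXCL10 and chr4:76036071-76036320 for CXCL11, each on the minus strand and written 5′ to 3′, and the last lies within the longer GENCODE span of CXCL11.
CXCL9: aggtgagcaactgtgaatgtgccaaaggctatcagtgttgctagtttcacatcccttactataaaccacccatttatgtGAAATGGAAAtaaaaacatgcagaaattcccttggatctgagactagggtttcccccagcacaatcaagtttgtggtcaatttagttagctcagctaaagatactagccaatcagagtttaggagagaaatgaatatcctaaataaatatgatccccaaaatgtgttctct
CXCL10: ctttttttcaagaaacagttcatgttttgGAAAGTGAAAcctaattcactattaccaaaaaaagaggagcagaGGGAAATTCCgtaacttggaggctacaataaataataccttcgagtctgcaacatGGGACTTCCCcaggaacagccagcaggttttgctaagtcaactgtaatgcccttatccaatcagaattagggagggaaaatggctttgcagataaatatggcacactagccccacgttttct
CXCL11: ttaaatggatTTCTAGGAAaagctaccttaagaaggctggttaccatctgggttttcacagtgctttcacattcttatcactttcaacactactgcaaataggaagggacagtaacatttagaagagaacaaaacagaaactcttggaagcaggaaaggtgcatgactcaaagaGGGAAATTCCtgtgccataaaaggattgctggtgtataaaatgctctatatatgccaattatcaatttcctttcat
CXCL9 held 1 ISRE core, 171 to 162 bases before the start. CXCL10 held 1 ISRE core, 221 to 212 bases before the start, and 2 matches to the NF-kB consensus, 177 to 168 and 122 to 113 bases before it. CXCL11 held a GAS core 240 to 232 bases before the start and an NF-kB match 76 to 67 bases before it. The CXCL10 and CXCL11 stretches shared the same 10 bases, GGGAAATTCC. Of 35116 promoter stretches of this length in the table, 3.02% held the ISRE core, 6.57% the GAS core and 9.96% the NF-kB consensus, and 0.2% held both the ISRE core and the NF-kB consensus, as CXCL10 did. A match of letters is a description of the sequence and shows no binding.

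CXCL10 was the most strongly expressed of the CXCR3 ligands and rose early and then partly fell back in HCC1937-OE-BRCA1. The untreated libraries had 5.97, 4.81 and 4.09 CPM, those at 12 h 39.7, 45.4 and 40.4 CPM and those at 24 h 15.3, 16.6 and 10.97 CPM. No 2 of the 3 conditions overlapped, and every 24 h library lay between the untreated and the 12 h libraries. The mean went from 4.96 ± 0.949 to 41.9 ± 3.11 and 14.3 ± 2.96 CPM (SD, n = 3), an 8.44-fold rise by 12 h. The log2 fold change was 3.08 at 12 h (SE 0.22, edgeR adjusted p = 1.86e-07) and 1.53 at 24 h (SE 0.22, adjusted p = 0.000288). Between 12 h and 24 h CXCL10 fell by 1.55 on the log2 scale (SE 0.20, adjusted p = 0.000855).

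CXCL11 rose with CXCL10 but its fall was not called. Its level was 1.23, 0.924 and 0.756 CPM in untreated libraries of HCC1937-OE-BRCA1, 4.02, 7.80 and 5.53 CPM at 12 h and 4.79, 3.56 and 4.05 CPM at 24 h. The treated libraries all lay above the untreated ones, while the 12 h and 24 h libraries overlapped. The log2 fold change was 2.57 at 12 h (SE 0.32, adjusted p = 0.000147) and 2.08 at 24 h (SE 0.33, adjusted p = 0.000761), and −0.49 from 12 h to 24 h (SE 0.28, edgeR adjusted p = 0.383). The proportion between these ligands was not the same at each time. For each count on CXCL11 there were 4.85, 5.2 and 5.42 counts on CXCL10 in the untreated libraries, 9.88, 5.82 and 7.31 at 12 h and 3.19, 4.67 and 2.71 at 24 h. The ratio was highest in all 3 libraries at 12 h and lowest in all 3 at 24 h, without overlap, a pattern for which an exact permutation test of 3 libraries against 3 cannot give a two-sided p below 0.1.

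CXCL9 stayed near the limit of detection. It had 3, 1 and 2 counts in the HCC1937-OE-BRCA1 libraries at 12 h, 1, 1 and 2 counts at 24 h, and no count in the untreated libraries or in any library labelled HCC1937-EV. The gene was removed by the filter on low counts. In the edgeR fit without a filter it was not called higher, and DESeq2's Wald test gave it no adjusted p, with unadjusted p of 0.224 at 12 h and 0.323 at 24 h, so no difference was detectable at this depth.

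Reads from ART3, a gene for an ADP-ribosyltransferase family member, bear on how CXCL10 and CXCL11 were counted, because ART3 spans both genes on the opposite strand without sharing exonic bases and it is not given in the sources used here whether counting used strand. ART3 had 1.29, 1.66 and 2.27 CPM in untreated HCC1937-OE-BRCA1, 5.28, 5.44 and 7.5 CPM at 12 h and 2.95, 1.90 and 2.76 CPM at 24 h. Thus its libraries at 12 h stood above those of both other conditions, and it was called higher at 12 h (log2 fold change 1.80, edgeR adjusted p = 0.00358) and not at 24 h (0.54, adjusted p = 0.372). Whether part of these reads came from the chemokine genes was not tested.

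CX3CL1, the membrane-tethered ligand of CX3CR1, was higher at both times, with its highest level at 24 h. The gene (ENSG00000006210.7) lies on the plus strand of chromosome 16 from 57372458 to 57385048. In HCC1937-OE-BRCA1 it had 0.0616, 0.308 and 0.189 CPM untreated, 2.01, 1.45 and 2.99 CPM at 12 h and 4.73, 4.36 and 3.86 CPM at 24 h. The 3 conditions did not overlap, and the untreated level rested on only 9 counts over 3 libraries. On the log2 scale CX3CL1 was higher by 3.47 at 12 h (SE 0.49, edgeR adjusted p = 0.000474) and by 4.48 at 24 h (SE 0.47, edgeR adjusted p = 1.32e-05). With 1 to 5 counts per untreated library the gene passed the filter on low counts through the treated libraries, so these calls were in part set by the filter. The ratio of summed counts per library size was 23.2 at 24 h, with a 95% exact interval from 11.99 to 51.4 that covers counting error only. From 12 h to 24 h the log2 fold change was 1.01 (SE 0.34, adjusted p = 0.151), and this difference was called in a fit on the 12 h and 24 h libraries alone (edgeR adjusted p = 0.0131).

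CXCL16, the CXCR6 ligand, was abundant from the start and fell late. The gene (ENSG00000161921.17) lies on the minus strand of chromosome 17 from 4733526 to 4739922. The level in HCC1937-OE-BRCA1 was 203, 216 and 235 CPM untreated, 246, 231 and 223 CPM at 12 h and 150.4, 155 and 148 CPM at 24 h. The untreated and 12 h libraries overlapped and all 3 at 24 h lay below them. CXCL16 was not called at 12 h (log2 fold change 0.10, SE 0.10, edgeR adjusted p = 0.781). It was called lower at 24 h against untreated (−0.53, SE 0.10, adjusted p = 0.0016) and against 12 h (−0.63, SE 0.10, edgeR adjusted p = 0.00219). Epithelial markers moved with it, as 5 of 10 epithelial markers were called lower at 24 h against untreated, where 3.55% of all genes were, and 5 of 10 against 12 h, where 0.862% were, with a median log2 fold change of −0.39 in both comparisons. Against untreated the 5 were CDH1, KRT5, KRT7, KRT8 and KRT18, while EPCAM, KRT14, KRT17, KRT19 and EGFR had log2 fold changes of 0.11, 0.54, −0.42, 0.15 and 0.03 that were not called. Their summed level was 11306 CPM untreated and 8164 CPM at 24 h, with KRT8 the most abundant at 3799 and 2684 CPM, and the part of this decline in the CXCL16 value was not tested. The 24 h libraries of HCC1937-OE-BRCA1 also had relatively fewer counts on GC-rich genes (Spearman's rho across genes between GC content and deviation from the line's mean from −0.44 to −0.29), whereas rho was 0.18 to 0.54 at 12 h and −0.59, 0.29 and 0.55 in the untreated libraries. With a correction for GC content and exonic length the CXCL16 values were −0.48 against untreated (edgeR adjusted p = 8.08e-05) and −0.51 against 12 h (edgeR adjusted p = 0.000203). ZMYND15, which lies 93 bases away on the opposite strand, was lower at 24 h than at 12 h too (log2 fold change −0.75, edgeR adjusted p = 0.0446) and was not called against untreated (−0.57, edgeR adjusted p = 0.0639), and MED11, which shares 85 exonic bases with CXCL16, was not called (0.08, adjusted p = 0.871).

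CCL5, which is made by T cells and by interferon-stimulated tumour cells, varied more among replicates than between conditions. The gene (ENSG00000271503.6) lies on the minus strand of chromosome 17 from 35871491 to 35880793. The 3 untreated libraries of HCC1937-OE-BRCA1 had 11.3, 8.01 and 28.8 CPM, those at 12 h 12.1, 30.6 and 22.8 CPM, and those at 24 h 28.5, 17.9 and 16.4 CPM. All 3 conditions overlapped, with a coefficient of variation of 69.7% in the untreated libraries against 19.1% for CXCL10. The log2 fold changes were 0.45 at 12 h (SE 0.39, edgeR adjusted p = 0.75) and 0.39 at 24 h (SE 0.39, edgeR adjusted p = 0.597). Leaving out 1 library at a time they ran from 0.12 to 1.18 at 12 h and from 0.065 to 1.12 at 24 h, with no call in any of these fits, and the upper values were those without the untreated library of 28.8 CPM (edgeR adjusted p = 0.105 and 0.0914).

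Counted over the genes tested in HCC1937-OE-BRCA1, 3 of 5 members (CXCL10, CXCL11 and CX3CL1) were called higher at 12 h, where 1.70% of the 18335 genes tested were called higher. At 24 h, 3 of 5 were higher, against 4.71% of all genes, and 1 of 5 was lower, against 3.55%. From 12 h to 24 h, 2 of 5 were lower, CXCL10 and CXCL16, against 0.862% of all genes. No member was called higher between those times, against 0.791% of all genes. At an unadjusted p under 0.05 by edgeR 1 member (CX3CL1) was higher, and 3214 of the 18335 genes had such a p in either direction. DESeq2 called 0 higher and gave CX3CL1 no adjusted p. The median log2 fold change of the 5 members was 2.57 at 12 h and 1.53 at 24 h, beside medians of 0.00 and 0.02 over all genes. CX3CL1, with 1 to 5 counts per untreated library, passed the filter on low counts through the treated libraries, so its part in these counts and medians was in part set by the filter. The shares over all genes moved with single libraries. In either direction 423 genes were called at 12 h and 257 without replicate 2 at 12 h. At 24 h there were 1515 and, with each library left out in turn, from 644 (without replicate 3 at 24 h) to 3329 (without untreated replicate 1), and from 12 h to 24 h there were 303, and 69 to 103 in the fits without 1 library. With a correction for GC content and length the members' counts were the same, while the calls over all genes at 12 h went from 312 up and 111 down to 544 up and 601 down. The fit on the 9 HCC1937-OE-BRCA1 libraries alone made the same calls, with log2 fold changes at 12 h of 3.06 for CXCL10, 2.55 for CXCL11 and 3.46 for CX3CL1.

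Transient and sustained induction were separated by these calls. A gene higher at both times and lower at 24 h than at 12 h was named partly transient, a gene higher at both times with no called difference between them sustained, and a gene higher at 12 h alone with a called fall transient. CXCL10 was partly transient, as were 0.0218% of all genes tested, that is 4 of 18335. CXCL11 and CX3CL1 were sustained, as were 1.21% of all genes, and no member was transient. The class of CX3CL1 rests on the calls that were in part set by the filter, and nothing is read from it. CXCL16 and CCL5 were not induced. CXCL11 and CX3CL1 had opposite signs from 12 h to 24 h, −0.49 and 1.01, so the shared name covers changes of opposite sign, neither past the threshold. Leaving out each of the 9 libraries in turn changed no member's class, and in fits on the compared conditions alone CX3CL1 was rising, that is higher at both times and higher at 24 h than at 12 h.

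**Figure D3:**
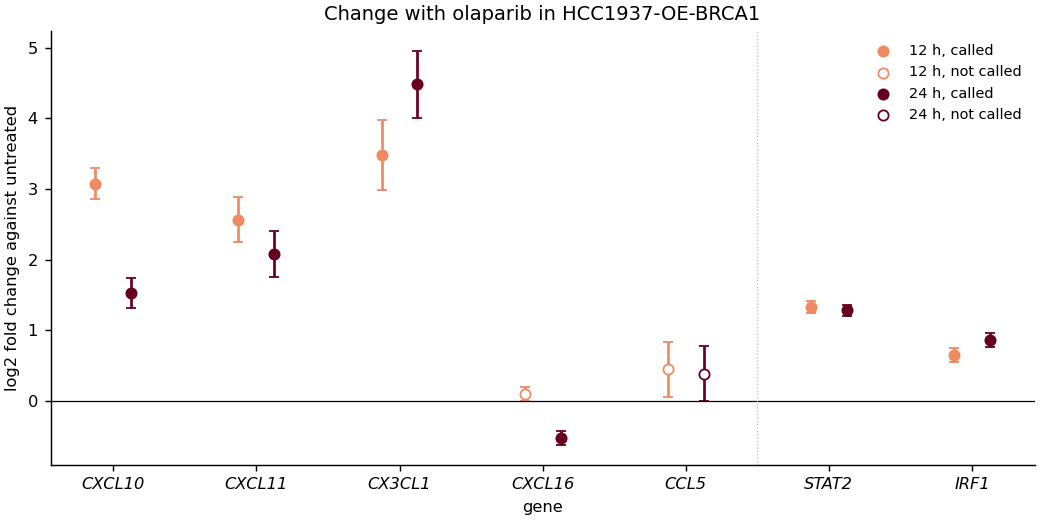
Log2 fold change against untreated in HCC1937-OE-BRCA1 at 12 h and 24 h for 5 chemokine genes and 2 transcription factor genes, with bars of 1 SE and filled points for called changes. CXCL10 drops from 3.08 to 1.53, CX3CL1 goes from 3.47 to 4.48, and CCL5 is open at both times.

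In the libraries labelled HCC1937-EV, no member was called upon PARPi treatment with the settings given above. CXCL10 had 0, 3 and 0 counts at 12 h and none at 0 h or 24 h, CXCL11 had a single count at 24 h and CX3CL1 a single count without treatment. CXCL16 stood at 8.08, 6.49 and 6.54 CPM untreated, 6.34, 5.88 and 7.54 CPM at 12 h and 5.84, 6.90 and 6.89 CPM at 24 h, with overlap of all 3 conditions. CCL5 had 0.124, 0 and 0.555 CPM untreated, between 0.0625 and 0.512 CPM at 12 h and 0.472, 0.472 and 0.959 CPM at 24 h, and the 3 conditions overlapped. Its log2 fold change was 0.19 at 12 h (SE 1.28, edgeR adjusted p = 1) and 1.45 at 24 h (SE 1.04, edgeR adjusted p = 0.367), the latter from 0.88 to 3.18 with 1 library left out, on 11 counts untreated and 32 at 24 h. CXCL10, CXCL11 and CX3CL1 passed the filter on low counts through HCC1937-OE-BRCA1 alone and with 0 to 3 counts per condition could not be called here, so the lack of calls says nothing about their response in this line. CCL5 was likewise removed by the filter in fits on the HCC1937-EV conditions alone, which leaves CXCL16 as the one member that passed in this line, at log2 fold changes of −0.10 at 24 h and −0.11 in the fit on those conditions alone (edgeR adjusted p = 0.644 for the latter). With the correction for GC content and length CXCL16 stood at −0.34 and was called lower (edgeR adjusted p = 0.0459). Without a filter on low counts CCL5 was called higher at 24 h (1.46, edgeR adjusted p = 0.04). Over all genes, 0.0436% were called in either direction at 12 h, 13.7% at 24 h and 0.180% between these times. These shares rest on single libraries, as the calls at 12 h went from 8 to 462 without replicate 1 at 12 h, those at 24 h from 2520 to 462 without untreated replicate 1, and those between the times from 33 to 115 without replicate 3 at 12 h. For the members, 0 had an unadjusted p under 0.05 by edgeR and DESeq2 called 0. Over all genes, 2963 had such a p by edgeR at 12 h, 5620 at 24 h and 1686 between these times. With CXCL16 as the one member that passed the filter in this line, nothing is read from the members' count.

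Between the lines, CXCL10, CXCL11, CXCL16 and CCL5 had higher levels in HCC1937-OE-BRCA1 without treatment, beside the marker differences given above, and CXCL9 had no count in either line. All tested members but CXCL16 passed the filter on low counts through the line in which they are high, so a count of calls over the members is set by the filter and nothing is read from it. CXCL16 was called higher without treatment, at 12 h and at 24 h, where 39.4%, 38.8% and 39.9% of all genes were. Without treatment CXCL10 was at least 80.2-fold and CXCL11 at least 15.7-fold higher than 3 counts over the HCC1937-EV libraries. CX3CL1 was at least 33.0-fold higher at 12 h and at least 72.8-fold at 24 h. The log2 fold change without treatment was 4.95 for CXCL16 (SE 0.12, edgeR adjusted p = 1.38e-18). CCL5 averaged 16.02 ± 11.2 CPM in untreated HCC1937-OE-BRCA1 and 0.226 ± 0.291 CPM in untreated HCC1937-EV (SD, n = 3 each), given as levels without a test. Without treatment the libraries of the lines did not overlap for CXCL10, CXCL11, CXCL16 and CCL5, while those for CX3CL1, with 1 count against 9, did. The share of all genes without overlap is not given, and the same limit of the filter holds, so nothing is read from this separation.

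The difference between the lines in their response was tested directly, and no member passed. For CXCL10, CXCL11 and CX3CL1 this test rests on 0 to 3 counts per condition in HCC1937-EV and has little to measure, and for CCL5 on 0 to 16 counts per library, which leaves CXCL16. Over all genes, 0.518% were called in either direction at 12 h and 19.4% at 24 h, and without untreated replicate 1 of HCC1937-OE-BRCA1 the number of calls went from 95 to 772 and from 3554 to 5502. By edgeR 1 of 5 members at 12 h and 2 of 5 at 24 h had an unadjusted p under 0.05. Over all 18335 genes tested, 2690 and 6094 had such a p, and nothing is read from the members' counts. CXCL16 changed by a log2 fold change of −0.53 in HCC1937-OE-BRCA1 and −0.10 in HCC1937-EV, a difference of −0.42 (SE 0.16, edgeR adjusted p = 0.0658), and with the correction for GC content and length the difference was −0.13 (edgeR adjusted p = 0.56). The CCL5 difference was −1.06 at 24 h (SE 1.11, edgeR adjusted p = 0.556), from −2.80 to −0.33 with 1 library left out. DESeq2's Wald test called CXCL16 (−0.43, adjusted p = 0.0374) and CX3CL1 (adjusted p = 0.0142) at 24 h and 0 members at 12 h.

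Of 42 other chemokine ligands on the list, 22 were in the count table and 10 were tested. In HCC1937-OE-BRCA1, 4 of the 10 were called higher at 12 h, where 1.70% of all genes were, and 4 at 24 h, where 4.71% were. One of them at each time, CCL17, had 1 to 4 counts per untreated library and passed the filter on low counts through the treated libraries, so its call was in part set by the filter. The ligands CXCL2, CXCL6, CXCL14 and CXCL17 were not called at either time. CCL21 had no count in HCC1937-OE-BRCA1 and passed the filter through HCC1937-EV, so it could not be called here. It is still counted among the 10 and in their medians. The median log2 fold change of the 10 was 0.69 at 12 h and 0.74 at 24 h. In the libraries labelled HCC1937-EV, CXCL1 and CXCL8 had no count and CCL17 and CCL22 had at most 2 in a library. CCL22 and CCL17, both ligands of CCR4, are the nearest genes on either side of CX3CL1 on the same strand, 6268 and 19719 bases away. CCL22 had 0.616, 0.801 and 0.63 CPM untreated, 2.26, 1.996 and 2.16 CPM at 12 h and 2.76, 1.84 and 1.78 CPM at 24 h. CCL17 had 0.246, 0.123 and 0.063 CPM untreated, 0.88, 0.968 and 0.508 CPM at 12 h and 1.60, 1.66 and 1.84 CPM at 24 h. For both genes every treated library lay above the untreated ones, and for CCL17, as for CX3CL1, every 24 h library also lay above those at 12 h. CCL22 was higher by log2 fold changes of 1.64 and 1.63 at 12 h and 24 h (edgeR adjusted p = 0.036 and 0.0182) and CCL17 by 2.38 and 3.48 (edgeR adjusted p = 0.0362 and 0.000494). Of 6 fits that each left out 1 library, the 12 h call was lost in 6 for CCL22 and in 4 for CCL17, with edgeR adjusted p up to 0.132 and 0.17. At 24 h the call was lost in 3 of 6 for CCL22 (edgeR adjusted p up to 0.0914).

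The neutrophil-attracting ligands CXCL1 and CXCL8 were also higher. CXCL1 had 5.91, 8.75 and 4.53 CPM untreated, 12.8, 14.7 and 13.5 CPM at 12 h and 18.4, 18.8 and 15.1 CPM at 24 h, with no overlap among the 3 conditions. It was higher by log2 fold changes of 1.09 (edgeR adjusted p = 0.00986) and 1.44 (edgeR adjusted p = 0.000605), which placed it among the sustained genes. The 12 h call, on which this class depends, was lost in 1 of 6 fits without 1 library (edgeR adjusted p = 0.0587). CXCL8 was called at 24 h only, at 1.44 (edgeR adjusted p = 0.0252), with 0.92 at 12 h (edgeR adjusted p = 0.326), and the 24 h call was lost in 4 of 6 fits without 1 library (edgeR adjusted p up to 0.121). CCL28, a mucosal chemokine, was the only transient gene among the 10, with 11.4, 10.7 and 7.81 CPM untreated, 16.3, 24.3 and 20.5 CPM at 12 h and 12.8, 13.1 and 11.04 CPM at 24 h. On the log2 scale it rose by 1.03 at 12 h (edgeR adjusted p = 0.000711), stood at 0.31 at 24 h (edgeR adjusted p = 0.283) and fell by 0.72 from 12 h to 24 h (edgeR adjusted p = 0.0262), and the fall was lost in 5 of 6 fits without 1 library (edgeR adjusted p up to 0.167).

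**Figure D4:**
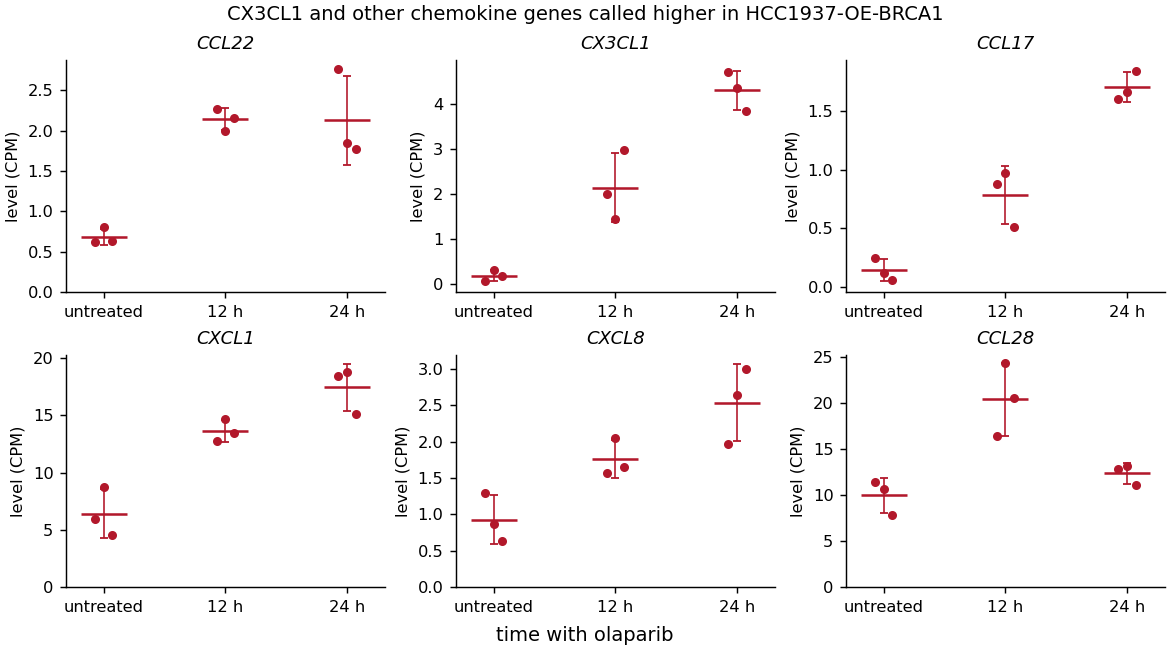
Level in CPM of CX3CL1, its genomic neighbours CCL22 and CCL17, and CXCL1, CXCL8 and CCL28 in HCC1937-OE-BRCA1 against time with olaparib, with 1 point per library, a line at the mean and a bar of 1 SD (n = 3). CX3CL1 and CCL17 are highest at 24 h, whereas CCL28 is highest at 12 h and near its untreated level at 24 h.

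Transcription factors that act on these promoters were read next. STAT2 and IRF9 belong to the complex that binds the ISRE after type I interferon, IRF1 is itself interferon-induced, and NFKB1 and RELA are NF-kB subunits. Of the 7 genes listed, 6 were tested, and 2 were called higher in HCC1937-OE-BRCA1 at 12 h and at 24 h, where 1.70% and 4.71% of all genes were. STAT2 went from 62.8 to 69.4 CPM untreated to 166 to 169 CPM at 12 h and 154 to 167 CPM at 24 h (log2 fold changes 1.33 and 1.28, edgeR adjusted p = 2.75e-09 and 2.77e-09). IRF1 went from 40.1 to 44.1 CPM untreated to 61.9 to 69.4 CPM at 12 h and 72.6 to 80.2 CPM at 24 h (0.65 and 0.87, edgeR adjusted p = 0.000367 and 7.38e-06). Both were sustained, with no library of the treated conditions among the untreated ones, and neither was called lower at 24 h than at 12 h. IRF9, IRF3, NFKB1 and RELA were not called in HCC1937-OE-BRCA1, with log2 fold changes at 12 h of −0.03, −0.08, −0.21 and 0.20. IRF7 had 11 counts or fewer in every library and was not tested. In HCC1937-EV IRF3 was called higher at 24 h (0.50, edgeR adjusted p = 0.0488), where 8.62% of all genes were, and the other 5 were not called. The IRF3 call was lost in all 6 fits without 1 library (edgeR adjusted p up to 0.165), and with the correction for GC content and length the value was 0.23 (edgeR adjusted p = 0.0976).

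Of 9 interferon receptor subunits and kinases, 1 was called higher in HCC1937-OE-BRCA1 at 24 h, where 4.71% of all genes were, a count too small to set the list apart. JAK2, a kinase of the interferon-gamma receptor, had a log2 fold change of 0.87 at 24 h (edgeR adjusted p = 0.0126) and of 0.51 at 12 h (edgeR adjusted p = 0.317), and its call was lost in 2 of 6 fits without 1 library (edgeR adjusted p up to 0.0873). The other 8 were not called at either time in HCC1937-OE-BRCA1. In HCC1937-EV at 24 h TYK2 was called higher (0.43, edgeR adjusted p = 0.018) and JAK1 lower (−0.34, edgeR adjusted p = 0.0305), where 8.62% and 5.12% of all genes were. Of 6 fits without 1 library the call was lost in 3 for TYK2 and in 5 for JAK1. With the correction for GC content and length the values were 0.19 and −0.25, both called (edgeR adjusted p = 0.0206 and 0.0167). Among proteases, 0 of 5 were called in HCC1937-OE-BRCA1 at 12 h and 1 of 5 was called higher at 24 h, where 4.71% of all genes were, again a count too small to set the list apart. ADAM10 and ADAM17, the sheddases of CX3CL1 and CXCL16, had log2 fold changes of −0.06 and 0.10 at 24 h (edgeR adjusted p = 0.794 and 0.623). DPP4, which trims CXCR3 ligands, had 0.55 (edgeR adjusted p = 0.617) and the proprotein convertase FURIN −0.28 (edgeR adjusted p = 0.177). MMP9, a gelatinase that can cleave CXCR3 ligands, went from 0.0616 to 0.189 CPM untreated to 1.35 to 1.78 CPM at 24 h (log2 fold change 3.30, SE 0.53, edgeR adjusted p = 0.000381). With 1 to 3 counts per untreated library it passed the filter on low counts through the 24 h libraries of this line, so this call was in part set by the filter. In HCC1937-EV MMP9 and ADAM10 were lower at 24 h, by log2 fold changes of −2.11 (edgeR adjusted p = 0.0277) and −0.43 (edgeR adjusted p = 0.0147). MMP9 had 2 to 10 counts per library at these times and was removed by the filter in the fit on these conditions alone. Its call was lost in 5 of 6 fits without 1 library and that of ADAM10 in 3 of 6. In HCC1937-EV the GC trend ran the other way, with rho from −0.55 to −0.22 in the untreated libraries and from 0.26 to 0.58 at 24 h. With the correction for GC content and length ADAM10 stood at −0.07 and was not called (edgeR adjusted p = 0.536).

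Receptors of the members were low, and 6 of 7 were in the table, of which 3 were tested. CXCR3 had 2 counts or fewer in every library, as had CX3CR1, and ACKR2, a scavenger of CC chemokines, had 13 counts or fewer. CXCR6 was tested and not called in HCC1937-OE-BRCA1 (0.52 at 12 h and −0.13 at 24 h, edgeR adjusted p = 0.657 and 0.888). The CCL5 receptor CCR3 had 2.59, 4.497 and 3.90 CPM untreated and 7.495 to 11.4 CPM in the 6 treated libraries, without overlap (log2 fold changes 1.29 and 1.34, edgeR adjusted p = 0.00773 and 0.00315). CCR3 was also higher at 24 h in HCC1937-EV (1.03, edgeR adjusted p = 0.0306), a call lost in 5 of 6 fits without 1 library. CCR1, the other tested CCL5 receptor, had 0, 0.185 and 0.126 CPM untreated and 0.492 to 1.19 CPM in the treated libraries of HCC1937-OE-BRCA1 (log2 fold change 2.82 at 24 h, edgeR adjusted p = 0.0449), and this call was lost when any of the 6 libraries compared was left out (edgeR adjusted p up to 0.157). With 0 to 3 counts per untreated library CCR1 too passed the filter through treated libraries.

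Genes whose log2 CPM ran most like a member over the 9 HCC1937-OE-BRCA1 libraries are given as a description, chosen from 14723 genes with a mean of at least 1 CPM, and the libraries share their time and their GC trend. OPTN, KLK7 and IDO1 followed CXCL10 (Pearson's r of 0.979, 0.978 and 0.976). IDO1, which encodes an interferon-induced enzyme of tryptophan breakdown, averaged 0.764 CPM untreated, 6.31 CPM at 12 h and 3.03 CPM at 24 h. IRF1-AS1, TNFRSF11A and ERRFI1 followed CXCL11 (0.984, 0.975 and 0.974), MDGA1, APOBEC3C and NRG2 followed CX3CL1 (0.980, 0.980 and 0.978), and SLC7A5, STAT5B and WFDC21P followed CXCL16 (0.983, 0.977 and 0.974). RPGRIP1, CASTOR3P and MOAP1 were nearest to CCL5 (0.955, 0.955 and 0.929). Among the members themselves, r was 0.910 between CXCL10 and CXCL11, 0.831 between CXCL11 and CX3CL1, 0.668 between CXCL10 and CX3CL1 and −0.55 between CXCL16 and CX3CL1.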

How the data were processed

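The authors deposited raw read counts per gene for 18 libraries, as whole numbers without normalization, made from TRIzol RNA and NEBNext Ultra II libraries. HISAT2, featureCounts, DESeq2 and GRCh38 are named in the submitters' processing notes, and versions and strand settings are not given in the sources used here. Symbols were matched for 99.72% of 35044 identifiers. Positions came from GENCODE release 29 and promoter stretches from RefSeq (GRCh38.p14), in which CXCL9, CXCL10 and CXCL11 had an entry.

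Counts were normalized with TMM and filtered with filterByExpr in edgeR 4.0.16 (R 4.3.3), which left 18335 genes. One mean per condition was fitted over the 18 libraries, and changes were tested by quasi-likelihood. The threshold was 0.05 on the Benjamini-Hochberg adjusted p over these genes. Correlations used log2 CPM with a prior count of 2. The steps were tested on simulated data. Folds against groups without counts used 3 counts over the group.

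The text names all members, the tested receptors, proteases and transcription factors, BRCA1, the overlapping or nearest genes that bear on a member, the other chemokines and the interferon receptor genes called in HCC1937-OE-BRCA1, and the 3 genes best correlated with each member over its libraries. Some genes are not reported here and were left out of the lists. Members and lists were chosen with earlier results of these data known. Alternatives were DESeq2 1.42.0 (size factors and Wald test), other filters, an absolute log2 fold change over 1, a GC and length offset, a replicate block, fits restricted to the conditions compared, and leaving out each library. The fit on the 9 HCC1937-OE-BRCA1 libraries alone was added after the marker check.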

Additional observations from a re-analysis of the deposited data

Results flagged for a closer look

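The difference between the lines in their response to PARPi treatment was called for some listed genes by edgeR's test of the difference itself, with Benjamini-Hochberg adjustment. At 24 h these were 3 of 6 transcription factors, 3 of 9 interferon receptor subunits and kinases, 1 of 5 proteases, 0 of 3 receptors, 0 of 10 other chemokine ligands, 1 of 5 neighbouring genes, 4 of 10 epithelial markers and BRCA1, where 19.4% of all genes were called, and no list is set apart by these counts. At 12 h they were 2 of 6 transcription factors and no gene of the other lists, where 0.518% of all genes were. The libraries labelled HCC1937-EV lack several epithelial markers, so an effect of BRCA1 cannot be told apart from other differences between the cells. At 12 h the log2 fold change was larger in HCC1937-OE-BRCA1 by 1.30 for STAT2 (adjusted p = 5.27e-06) and by 0.68 for IRF1 (adjusted p = 0.0464). At 24 h it was larger by 1.17 for STAT2 (adjusted p = 1.13e-05) and 0.67 for IRF1 (adjusted p = 0.00533). MMP9 differed by 5.41 at 24 h (adjusted p = 0.000313), on 1 to 29 counts per library, and it passed the filter on low counts only through the HCC1937-OE-BRCA1 libraries at 24 h, where it is high, so this value was in part set by the filter. JAK1 and JAK2 differed by 0.52 and 1.04 at 24 h (adjusted p = 0.015 and 0.0162). IRF3 and TYK2 differed in the other direction, by −0.81 and −0.55 (adjusted p = 0.0196 and 0.0205). BRCA1 itself differed by 0.54 at 24 h (adjusted p = 0.023). Of 12 fits that each left out 1 library, the call was lost in 10 for IRF1 at 12 h and, at 24 h, in 6 for BRCA1, 4 for IRF3, 4 for TYK2, 3 for JAK2 and 2 for JAK1, and in none for STAT2, MMP9 and IRF1. With the GC and length offset the calls of BRCA1 (0.17, adjusted p = 0.133) and TYK2 (−0.21, adjusted p = 0.0567) were lost. Groups of 3 libraries are too small for an outlier test.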

How the results depend on the processing

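Of the member counts and class counts under alternatives other than leaving out a library, 104 differed from the value given by less than 1.5 times and 14 by more, and of single values 500 kept direction and call, 29 lost the call, 10 gained it and 2 changed sign. The calls of CXCL10 and CXCL11 against untreated in HCC1937-OE-BRCA1 held in every setting in which the gene was tested, and those of CXCL16 in all but the one with a further condition on fold change. Those of CX3CL1 were in part set by the filter on low counts, so nothing is read from their being made in the settings that tested it. Requiring at least 10 counts in every library left CXCL16 as the only member tested, so the members called in HCC1937-OE-BRCA1 were 0 at 12 h, 1 at 24 h and 1 between these times, 1 of 1 was called between the lines at each time, 1 differed in response between the lines at 24 h, and 0 were induced, 0 partly transient and 0 sustained. With an absolute log2 fold change over 1 as a further condition, 1 member (CXCL10) was called from 12 h to 24 h. In the libraries labelled HCC1937-EV at 24 h, 1 member was called without a filter on low counts (CCL5) and 1 with the GC and length offset (CXCL16, −0.34, edgeR adjusted p = 0.0459). Over all genes, 1923 were up and 1149 down without the filter, and 1409 up and 1184 down with the offset. DESeq2's Wald test called 2 members for the difference in response at 24 h, beside 1731 genes up and 2414 down. Counts over all genes moved more, for HCC1937-OE-BRCA1 at 24 h from 864 up and 651 down to 1270 and 1801 with that offset, and from 145 and 158 between 12 h and 24 h to 1434 and 1774 in the fit on those conditions alone and to 237 and 722 without a filter. Values near 0 changed sign, CXCL16 from 12 h to 24 h in HCC1937-EV (0.0059 without a filter) and CCL5 over the same interval in HCC1937-OE-BRCA1 (0.0031 with the GC and length offset).

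Leaving out 1 library at a time, the difference in response at 24 h had 0 to 1 member called, the 1 being CXCL16 without untreated replicate 1 of either line. Over all genes, 2062 to 5502 were called in these fits. Log2 fold changes spanned 0 for CCL5 in HCC1937-EV at 12 h (−0.77 to 1.93), for its difference in response at 12 h (−1.48 to 1.21) and for CCL5 from 12 h to 24 h in HCC1937-OE-BRCA1 (−0.35 to 0.27). They also did for CXCL16 in HCC1937-EV at 12 h (−0.21 to 0.0091), at 24 h (−0.17 to 0.0037) and between these times (−0.093 to 0.105). The causes were not tested. The BRCA1 difference in response at 12 h ran from −0.17 to 0.077. Of 6 fits each, the call was lost in 6 for IRF3, in 5 for CCR3, JAK1 and MMP9 and in 3 for ADAM10 and TYK2 in HCC1937-EV, and in HCC1937-OE-BRCA1 in 4 for CXCL8 at 24 h, in 3 for CCL22 at 24 h and in 1 for CXCL1 at 12 h.

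Replicate numbers did not pair the samples, as the deviations of same-numbered libraries correlated with r from −0.43 to 0.30 over 18 pairs. With a replicate block, 3, 4 and 2 members were called in HCC1937-OE-BRCA1 at 12 h, at 24 h and between these times, as without it. The block lost CCL17 at 12 h (edgeR adjusted p = 0.0802), CXCL8 (0.0503) and CCR1 (0.0814), and IRF3 (0.0702) and JAK1 (0.0555) in HCC1937-EV, and the IRF1 difference in response at 12 h (0.0695).

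Depth limits CXCL9, the untreated level of CX3CL1 and every member but CXCL16 in HCC1937-EV, where a library allows up to 3 counts for a gene without any.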
